A study of Mus musculus with 7 samples.

Results

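The genes described here are 10 of the 49315 listed in the count tables, chosen by name as the core of the switch between division and rest in the G1 phase. They are the D-type cyclins Ccnd1, Ccnd2 and Ccnd3, the kinases Cdk4 and Cdk6, the kinase inhibitors Cdkn1a, Cdkn1b, Cdkn1c and Cdkn2c, and the pocket protein gene Rb1. All 10 passed the filter on low counts, as did 16616 genes in all. Total RNA was sequenced from oligodendroglia of mouse brain in 2 groups, 4 libraries of Sox9-tg cells, which overexpressed the transcription factor gene Sox9, and 3 libraries of control cells of the genotype Sox9-wt. The series' title places the cells among early postnatal NG2 glia, the dividing progenitors of the oligodendrocyte lineage. Age in days, sex, the way of isolating the cells, and the promoter or Cre line behind the overexpression were not given in the sources used here. All 7 libraries are called biological replicates, but nothing says that they came from separate animals, so the p-values reflect only how far these samples differ among themselves, and that spread may be technical. The question put to these genes was which of them went with the lower level of division genes in Sox9-tg cells.

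D cyclins are made in response to growth signals and bind Cdk4 or Cdk6. The active pairs phosphorylate the Rb protein, which then releases E2F transcription factors, and E2F proteins switch on the genes of DNA replication. Inhibitors of the Ink4 family, such as p18 (Cdkn2c), bind Cdk4 and Cdk6 themselves, whereas the Cip/Kip proteins p21 (Cdkn1a), p27 (Cdkn1b) and p57 (Cdkn1c) bind complexes of cyclin and kinase. In oligodendrocyte progenitors p27 is known to limit the number of divisions, and p57 and p18 have also been tied to the end of division and to differentiation.

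Libraries of Sox9-tg replicates 1 to 4 held 19045591, 20815459, 15768472 and 20771299 counts, and those of control replicates 1 to 3 held 17275678, 29379986 and 30507326. Sox9 itself was at 2207, 2741, 3597 and 3115 CPM (read counts scaled to a common library size) in Sox9-tg replicates 1 to 4, against 239, 353 and 293 CPM in control replicates 1 to 3 (log2 fold change 3.30, SE 0.24), so every library matched its label. The NG2 glia genes Pdgfra and Cspg4 were present in all 7 libraries, at 1432 ± 101 and 593 ± 93.2 CPM in Sox9-tg libraries (SD, n = 4) and 433 ± 22.6 and 114 ± 17.9 CPM in control libraries (SD, n = 3). Genes of neurons, astrocytes, microglia and blood vessels were also detected, so the libraries held RNA of more than 1 cell type. In such bulk RNA, fewer cells of a type and less RNA per cell cannot be told apart. Sox9-tg replicates 3 and 4 differed beyond sampling noise but were far closer to each other than any other pair of their group, with a chi-square per degree of freedom of 5.08 against 43.7 to 91.9, and key counts are also given with the pair summed as 1 library.

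Of the 10 genes, Ccnd3 and Cdkn1c rose about 2-fold in Sox9-tg cells and Cdkn2c fell to 0.524 of its control level. Cdkn1c was thus the single one of the 4 inhibitors called higher where division genes were lower. The other 7, among them Ccnd2, Cdkn1b and Cdkn1a, did not pass an adjusted p of 0.05. The 3 that passed were also those whose Sox9-tg and control libraries did not overlap. Across all tested genes 13.5% were called, 7.69% higher and 5.86% lower, and the groups did not overlap for 24.5%. The median log2 fold change of the 10 was -0.22, with 7 negative and 3 positive, beside -0.01 over all genes tested.

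**Figure D1:**
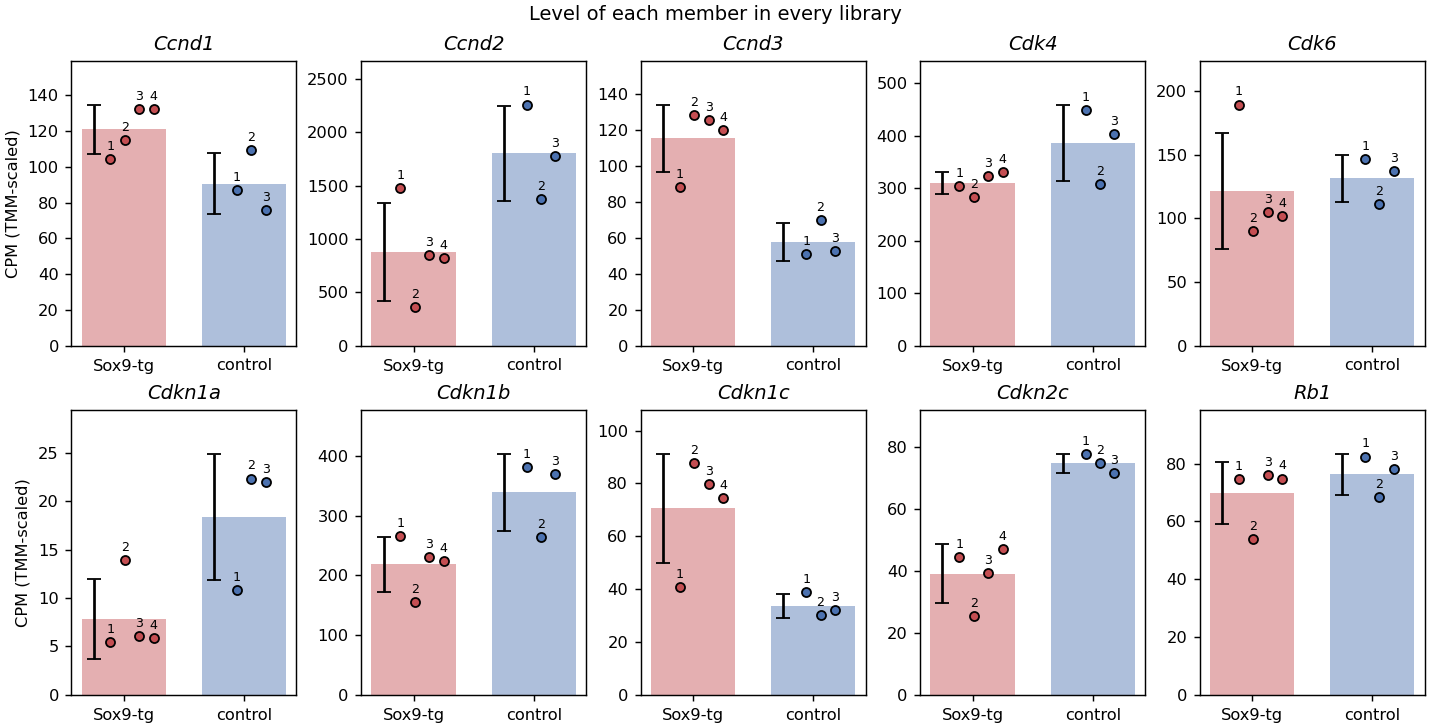
Level of each of the 10 genes in CPM scaled by TMM factors (y axis, linear, from 0), one panel a gene, with Sox9-tg left and control right. Bars are means over 4 Sox9-tg or 3 control libraries, error bars the SD, and numbered points the replicates. The groups are apart for Ccnd3, Cdkn1c and Cdkn2c and overlap for the other 7.

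Of the D cyclins, which carry the growth signal, Ccnd3 was called and Ccnd1 and Ccnd2 were not. Ccnd3 (ENSMUSG00000034165, GRCm38 chromosome 17, 47505051 to 47599691, plus strand) was at 88.2, 128, 126 and 120 CPM in Sox9-tg replicates 1 to 4, against 51.0, 70.1 and 52.7 CPM in control replicates 1 to 3. The lowest Sox9-tg library, replicate 1, stood above the highest control library, replicate 2. It rose 1.99-fold (log2 fold change 1.00, SE 0.17, 95% interval 0.60 to 1.39, Benjamini-Hochberg adjusted p = 0.00655 by edgeR's quasi-likelihood test). Its call held in all 7 fits that left out 1 library, with log2 fold changes of 0.93 to 1.16.

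Ccnd2 (ENSMUSG00000000184, chromosome 6, 127125162 to 127152193, minus strand), a D cyclin of dividing neural progenitors, was at 1483, 361, 848 and 820 CPM in Sox9-tg replicates 1 to 4, against 2260, 1372 and 1780 CPM in control replicates 1 to 3. Sox9-tg replicates 2 to 4 lay below every control library, and Sox9-tg replicate 1 lay above control replicate 2. The log2 fold change was -1.04 (SE 0.40, 95% interval -1.94 to -0.14), with adjusted p = 0.131 by edgeR's quasi-likelihood test. Without Sox9-tg replicate 1 it was -1.42 and passed (adjusted p = 0.0252 by the same test). With all libraries it passed with DESeq2 (adjusted p = 0.0388) but not with limma-voom (0.107).

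Ccnd1 (ENSMUSG00000070348, chromosome 7, 144929931 to 144939925, minus strand), the D cyclin best known as a target of growth factor signalling, was at 104, 115, 132 and 132 CPM in Sox9-tg replicates 1 to 4, against 87.0, 109 and 75.6 CPM in control replicates 1 to 3. Control replicate 2 lay above Sox9-tg replicate 1, and the difference did not pass (log2 fold change 0.42, SE 0.15, 95% interval 0.07 to 0.76, adjusted p = 0.116 by edgeR's quasi-likelihood test). Of its exon bases, 23.4% overlap Oraov1 on the other strand. Whether strand was used in counting was not given in the sources used here. For comparison, Oraov1 had a log2 fold change of 0.12 (adjusted p = 0.646 by the same test).

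The starts of Ccnd3 number 2 in the RefSeq promoter table (GRCm38.p6), which matched 6 of the 10 genes by symbol. The 250 bases before each are shown because Ccnd3 is the D cyclin that rose, and they show that its starts differ in sequence. The first is chr17:47504801-47505050 and the second chr17:47593217-47593466, both on the plus strand. Capitals mark a SOX word, ACAAAG or ACAATG on either strand, here read as CTTTGT.
Ccnd3 first start: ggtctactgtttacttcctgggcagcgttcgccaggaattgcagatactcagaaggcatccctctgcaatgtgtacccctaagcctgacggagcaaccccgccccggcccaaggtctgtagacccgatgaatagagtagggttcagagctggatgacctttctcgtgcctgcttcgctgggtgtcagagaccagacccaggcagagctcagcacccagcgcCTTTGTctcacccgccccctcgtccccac
Ccnd3 second start: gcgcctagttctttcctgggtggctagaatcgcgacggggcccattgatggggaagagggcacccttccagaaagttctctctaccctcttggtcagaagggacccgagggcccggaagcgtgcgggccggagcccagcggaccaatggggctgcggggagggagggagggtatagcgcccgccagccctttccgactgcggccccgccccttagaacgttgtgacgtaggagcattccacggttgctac
The first window holds 1 SOX word and the second none, and 25.2% of the 32851 promoter windows of the same length hold at least 1. A match is a description and not a bound site. Counts per gene do not tell which start was used.

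As shares of the summed D cyclin level, scaled by exon length (CPM per kb), Ccnd2 held 67.0 ± 13.7% in Sox9-tg libraries (SD, n = 4) and 87.6 ± 4.55% in control libraries (SD, n = 3). Ccnd3 held 11.4 ± 5.61% in Sox9-tg libraries and 3.19 ± 1.20% in control libraries. Ccnd1 held 21.5 ± 8.14% in Sox9-tg libraries and 9.23 ± 3.37% in control libraries. Ccnd2 was thus the main D cyclin in every library. Its share ranged from 49.5 to 83.1% in Sox9-tg libraries and from 82.4 to 90.8% in control libraries, and the ranges overlapped. Ccnd3 shares ranged from 5.30 to 18.9% in Sox9-tg libraries and from 2.20 to 4.52% in control libraries, with no overlap. The summed level was 190, 77.5, 133 and 129 CPM per kb in Sox9-tg replicates 1 to 4, against 264, 177 and 211 CPM per kb in control replicates 1 to 3. These shares carry no test.

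**Figure D2:**
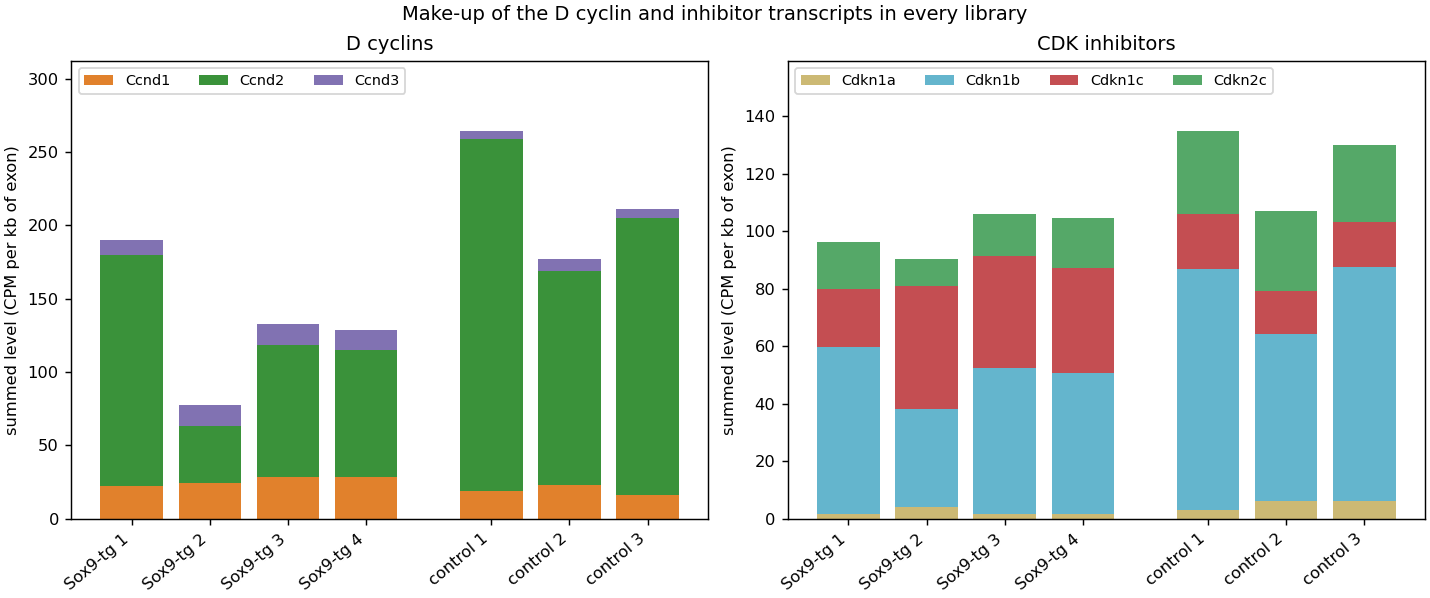
Stacked bars of the level of each gene (CPM per kb of exon, y axis, from 0) for the D cyclins (left) and the inhibitors (right), one bar a library, Sox9-tg replicates 1 to 4 left of control replicates 1 to 3. Ccnd2 is the tallest part of every D cyclin bar, and Cdkn1c takes 20.8 to 47.4% of the inhibitor level in Sox9-tg libraries against 12.2 to 14.1% in control libraries.

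The kinases and their substrate showed no called change. Cdk4 (ENSMUSG00000006728, chromosome 10, 127063534 to 127067920, plus strand) was at 304, 284, 323 and 331 CPM in Sox9-tg replicates 1 to 4, against 450, 307 and 403 CPM in control replicates 1 to 3. Its groups overlapped through control replicate 2 (log2 fold change -0.32, SE 0.15, 95% interval -0.66 to 0.03, adjusted p = 0.223 by edgeR's quasi-likelihood test). Tspan31, which covers 19.7% of the exon bases of Cdk4 on the other strand, had a log2 fold change of 0.10 (adjusted p = 0.704 by the same test). Cdk4 made up 91.7% of the kinase level per kb in Sox9-tg libraries and 92.6% in control libraries on average.

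The Cdk4 promoter (chr10:127063285-127063534, plus strand, RefSeq, GRCm38.p6) is shown because it holds 4 E-boxes, the word CACGTG read by Myc and related factors. In the Myc and Max network, Myc rose (log2 fold change 1.73), whereas Mycn (-1.04) and Mxd3 (-1.33) fell. Whether any of them acts on these words was not tested. The capitals mark these words.
Cdk4: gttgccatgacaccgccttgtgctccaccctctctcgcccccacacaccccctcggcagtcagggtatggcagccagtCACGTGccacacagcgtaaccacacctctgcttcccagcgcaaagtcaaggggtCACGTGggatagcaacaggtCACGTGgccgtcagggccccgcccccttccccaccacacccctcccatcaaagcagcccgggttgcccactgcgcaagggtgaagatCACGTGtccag
Of all promoter windows in the table, 6.02% hold at least 1 E-box. Cdk4 itself was not called.

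Cdk6 (ENSMUSG00000040274, chromosome 5, 3341485 to 3531008, plus strand), the second kinase of D cyclins, was at 189, 90.2, 105 and 101 CPM in Sox9-tg replicates 1 to 4, against 146, 111 and 137 CPM in control replicates 1 to 3. Sox9-tg replicate 1 was the highest of all 7 libraries and the other Sox9-tg libraries the lowest. The log2 fold change was -0.11 (SE 0.25, 95% interval -0.68 to 0.46, adjusted p = 0.827 by edgeR's quasi-likelihood test).

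Rb1 (ENSMUSG00000022105, chromosome 14, 73183673 to 73325822, minus strand), which holds E2F in check, was at 74.5, 53.9, 75.9 and 74.8 CPM in Sox9-tg replicates 1 to 4, against 82.4, 68.5 and 78.0 CPM in control replicates 1 to 3. Apart from Sox9-tg replicate 2 the libraries lay close together (log2 fold change -0.13, SE 0.14, 95% interval -0.45 to 0.20, adjusted p = 0.62 by edgeR's quasi-likelihood test). Cdk4, Cdk6, Rb1 and Ccnd1 were called in none of the 7 fits that left out 1 library.

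Among the inhibitors, p57 rose, p18 fell, and neither p27 nor p21 passed. Cdkn1c (ENSMUSG00000037664, chromosome 7, 143458339 to 143461050, minus strand), which encodes p57, was at 40.8, 87.5, 79.8 and 74.5 CPM in Sox9-tg replicates 1 to 4, against 38.9, 30.2 and 32.2 CPM in control replicates 1 to 3. The groups did not overlap, but Sox9-tg replicate 1 lay next to control replicate 1. It rose 2.09-fold (log2 fold change 1.07, SE 0.25, 95% interval 0.51 to 1.62, adjusted p = 0.0219 by edgeR's quasi-likelihood test).

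The Cdkn1c call held in 3 of the 7 fits that left out 1 library, with log2 fold changes of 0.96 to 1.25. It was lost when control replicate 2 (adjusted p = 0.0633), 3 (0.0964), or Sox9-tg replicate 3 (0.0582) or 4 (0.0541) was left out. With Sox9-tg replicates 3 and 4 summed as 1 library the log2 fold change was 1.03 and the call was lost as well (adjusted p = 0.0569). An antisense gene, Gm44732, covers 30.7% of the exon bases of Cdkn1c. It was at 0.63 to 1.71 CPM in Sox9-tg libraries and 0.358 to 0.581 CPM in control libraries, without overlap. Its log2 fold change of 1.25 did not pass (adjusted p = 0.106 by edgeR's quasi-likelihood test). The use of strand in counting was not given, and the part of this gene in the Cdkn1c counts was not tested.

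Cdkn2c (ENSMUSG00000028551, chromosome 4, 109660876 to 109667189, minus strand), which encodes p18, was at 44.5, 25.5, 39.5 and 47.1 CPM in Sox9-tg replicates 1 to 4, against 77.8, 75.02 and 71.5 CPM in control replicates 1 to 3. Every Sox9-tg library lay well below every control library. It fell to 0.524 of the control level (log2 fold change -0.93, SE 0.19, 95% interval -1.37 to -0.50, adjusted p = 0.014 by edgeR's quasi-likelihood test). Leaving out control replicate 1 (adjusted p = 0.062) or 3 (0.0612) ended the call, and the log2 fold change stayed between -1.02 and -0.76 in the 7 fits that left out 1 library.

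The window before the inner of the 2 starts of Cdkn2c in the table (chr4:109665373-109665622, minus strand, RefSeq, GRCm38.p6) is shown because Cdkn2c is the inhibitor that fell. It holds none of the words searched, which were the SOX words, the E-box and the E2F words TTTCCCGC, TTTCGCGC, TTTGCCGC and TTTGGCGC, on both strands. The window before the outer start, not shown, holds none of them either. All its 250 bases lie in annotated untranslated sequence of Cdkn2c.
Cdkn2c inner start: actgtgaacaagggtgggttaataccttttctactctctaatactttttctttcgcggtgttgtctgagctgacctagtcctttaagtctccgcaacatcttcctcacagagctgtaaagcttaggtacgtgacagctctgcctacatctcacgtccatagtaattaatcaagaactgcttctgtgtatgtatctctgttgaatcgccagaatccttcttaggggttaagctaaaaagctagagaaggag
An E2F word is in 1.86% of all promoter windows in the table.

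Cdkn1b (ENSMUSG00000003031, chromosome 6, 134920401 to 134925513, plus strand), which encodes p27, was at 265, 156, 231 and 223 CPM in Sox9-tg replicates 1 to 4, against 382, 264 and 370 CPM in control replicates 1 to 3. Control replicate 2 and Sox9-tg replicate 1 met at nearly the same level, and the other Sox9-tg libraries lay lower. The log2 fold change was -0.63 (SE 0.20, 95% interval -1.09 to -0.17), with adjusted p = 0.0765 by edgeR's quasi-likelihood test. It passed without control replicate 2 (adjusted p = 0.0491), without Sox9-tg replicate 1 (0.0394) and with DESeq2 (0.0263).

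Cdkn1a (ENSMUSG00000023067, chromosome 17, 29090976 to 29100727, plus strand), which encodes the p53 target p21, was the least abundant of the 10. It was at 5.46, 14.0, 6.05 and 5.90 CPM in Sox9-tg replicates 1 to 4, against 10.9, 22.3 and 22.0 CPM in control replicates 1 to 3, and its lowest raw count was 94, in Sox9-tg replicate 3. Only Sox9-tg replicate 2 reached into the control range. The log2 fold change was -1.23 (SE 0.38, 95% interval -2.09 to -0.37), with adjusted p = 0.0672 by edgeR's quasi-likelihood test. Without Sox9-tg replicate 2 it was -1.65 and passed (adjusted p = 0.00832), as it did without control replicate 1 (-1.49, adjusted p = 0.044) and with DESeq2 (adjusted p = 0.0113).

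Replicate 2, the highest library of each group in Cdkn1a, was also high in markers of other cell types. Summed CPM of 10 microglia markers was 58.8, 354, 124 and 97.8 in Sox9-tg replicates 1 to 4, against 117, 835 and 253 in control replicates 1 to 3, with no member called. For the 7 tested endothelial markers the sums were 26.1, 65.2, 37.4 and 45.2 CPM in Sox9-tg replicates 1 to 4, against 49.9, 245 and 60.6 CPM in control replicates 1 to 3. Replicate 2 was the highest of its group in both lists. Control replicate 3, with far lower sums, was nearly level with control replicate 2 in Cdkn1a (22.0 and 22.3 CPM). The part of these cells in the Cdkn1a values was not tested.

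Per kb of exon, the order of the inhibitors differed between the groups. Cdkn1b led in both on average, at 48.0 CPM per kb in Sox9-tg libraries and 74.4 CPM per kb in control libraries. Cdkn1c followed in Sox9-tg libraries at 34.6 CPM per kb, with 16.6 CPM per kb in control libraries, and Cdkn2c was at 14.6 CPM per kb in Sox9-tg libraries and 27.8 CPM per kb in control libraries. Cdkn1c stood above Cdkn2c in 4 of 4 Sox9-tg libraries and 0 of 3 control libraries. Cdkn1b stood above Cdkn1c in 3 of 4 Sox9-tg libraries and 3 of 3 control libraries. In Sox9-tg replicate 2 Cdkn1c led, at 42.9 CPM per kb against 34.2 CPM per kb for Cdkn1b. Cdkn1c held 35.0 ± 10.97% of the summed inhibitor level in Sox9-tg libraries (SD, n = 4) and 13.4 ± 1.05% in control libraries (SD, n = 3), and Cdkn2c held 14.6 ± 3.08% in Sox9-tg libraries and 22.7 ± 3.00% in control libraries. The summed inhibitor level was 96.4, 90.5, 106 and 105 CPM per kb in Sox9-tg replicates 1 to 4, against 135, 107 and 130 CPM per kb in control replicates 1 to 3, so no Sox9-tg library exceeded the lowest control library in the total.

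Over all 10 genes, the levels per kb of exon were highest for Cdk4 (95.6 CPM per kb) and Ccnd2 (93.3 CPM per kb) in Sox9-tg libraries, and for Ccnd2 (192 CPM per kb) and Cdk4 (119 CPM per kb) in control libraries. Ccnd2 exceeded Cdk4 in 1 of 4 Sox9-tg libraries and in 3 of 3 control libraries, so their order was not the same in all Sox9-tg libraries. Ccnd1 stood above Cdkn2c in 4 of 4 Sox9-tg libraries and 0 of 3 control libraries, and above Cdkn1c in 1 of 4 Sox9-tg and 2 of 3 control libraries. With the longest transcript as length, Ccnd1 stood above Cdkn1c in control replicate 1 as well (23.2 against 20.5 CPM per kb). Ccnd3 was at 13.2 CPM per kb in Sox9-tg libraries and 6.61 CPM per kb in control libraries, beside Rb1 at 11.6 CPM per kb in Sox9-tg libraries and 12.7 CPM per kb in control libraries. Ccnd3 stood above Rb1 in 3 of 4 Sox9-tg libraries and 0 of 3 control libraries. This order depends on the length used, 8.775 kb of exon or a longest transcript of 3.858 kb for Ccnd3. For Rb1 these lengths are 6.015 and 4.656 kb. With the longest transcript, Ccnd3 also stood above Rb1 in Sox9-tg replicate 1 and control replicate 2. Cdkn1a was last in both groups, at 2.21 CPM per kb in Sox9-tg libraries and 5.17 CPM per kb in control libraries.

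The genes of DNA replication and mitosis against which these regulators are set were lower in Sox9-tg libraries. Of 30 replication genes 27 fell (median log2 fold change -0.88), and of 30 mitosis genes 28 fell (median -1.08), where 5.86% of all genes fell. None of these 60 rose by edgeR's quasi-likelihood test, and DESeq2 and limma-voom called none higher. At an unadjusted p under 0.05 none had a positive change, where 27% of all genes had such a p in either direction. The mean log2 CPM over the 60 genes was 5.28, 4.51, 5.002 and 5.12 in Sox9-tg replicates 1 to 4, against 6.21, 5.82 and 5.92 in control replicates 1 to 3. Genes of smallest p were Rrm2 (log2 fold change -1.71), Pcna (-0.98) and Tyms (-1.09) for replication, and Birc5 (-1.32), Cdk1 (-1.27) and Ccnb1 (-1.21) for mitosis. Mki67 did not pass (log2 fold change -1.17, adjusted p = 0.0963 by edgeR's quasi-likelihood test). By the same test it passed without Sox9-tg replicate 1 (adjusted p = 0.0189) and without both libraries numbered 1 (0.0143). It also passed with the replicate number as a block (0.000831). It was at 287, 101, 132 and 151 CPM in Sox9-tg replicates 1 to 4. Control replicates 1 to 3 were at 605, 276 and 251 CPM, so the groups overlapped. Without control replicate 1 the fallen genes numbered 9 of 30 for replication and 6 of 30 for mitosis, and without control replicate 3 they numbered 10 and 12.

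Sox9-tg replicate 2 was lowest in division genes and Sox9-tg replicate 1 highest in its group. Within the Sox9-tg group, Cdkn1c and Ccnd3 ran the other way, from 87.5 and 128 CPM in replicate 2, through replicates 3 and 4, to 40.8 and 88.2 CPM in replicate 1. In control libraries Ccnd3 again ran against division, whereas Cdkn1c was highest in control replicate 1, the library with the highest level of division genes. Sox9-tg replicate 1 had Cdkn1c at 40.8 CPM beside 38.9 CPM in control replicate 1, while its division genes were at 5.28 beside 6.21 (mean log2 CPM). These orders were noticed in the values and carry no test.

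**Figure D3:**
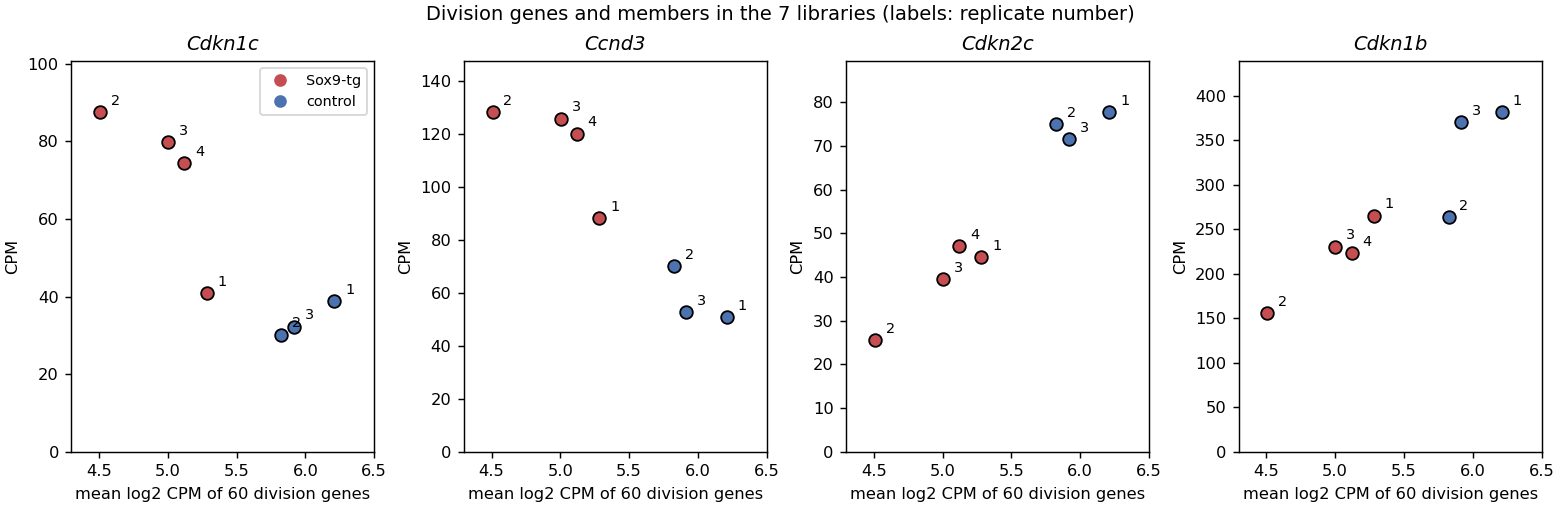
Mean log2 CPM of 60 replication and mitosis genes (x axis) against the level of Cdkn1c, Ccnd3, Cdkn2c and Cdkn1b (y axis, CPM, linear, from 0), one panel a gene and one point a library, Sox9-tg and control in separate colours and numbered by replicate. Division genes are lower in all 4 Sox9-tg libraries (4.51 to 5.28) than in the 3 control libraries (5.82 to 6.21).

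Some cell type markers followed the same orders. Summed CPM of the 10 tested myelin markers was 800, 4823, 2869 and 2558 in Sox9-tg replicates 1 to 4, against 158, 301 and 254 in control replicates 1 to 3, the order of Ccnd3 within each group and of Cdkn1c within the Sox9-tg group. Of these 10 markers 6 rose. Mbp, which encodes myelin basic protein, was at 257, 1883, 1110 and 1002 CPM in Sox9-tg replicates 1 to 4, against 33.6, 69.1 and 62.2 CPM in control replicates 1 to 3. Summed CPM of 14 neuron markers was 3512, 1787, 2268 and 2264 in Sox9-tg replicates 1 to 4, against 4844, 2969 and 3857 in control replicates 1 to 3, the order of Ccnd2 and Cdkn1b within each group, and 7 of the 14 fell. The order of the myelin sums was also that of the summed microglia markers in both groups. NG2 glia and premyelinating oligodendrocyte markers had it within the Sox9-tg group but not within the control group. Astrocyte markers had another order, at 2059, 2582, 2655 and 2991 CPM in Sox9-tg replicates 1 to 4. The part of these cell types in the values of Ccnd3, Cdkn1c, Ccnd2 and Cdkn1b was not tested.

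Other lists moved as follows, beside 7.69% of all genes higher and 5.86% lower. Of 12 NG2 glia markers 11 rose, and of 12 premyelinating oligodendrocyte markers 9 rose. Falls were found for 4 of 10 astrocyte markers (Aqp4 at 29.7 ± 6.25 CPM in Sox9-tg and 153 ± 62.4 CPM in control libraries), 5 of 10 radial glia markers and 1 of 7 endothelial markers, and 1 of 8 pericyte and fibroblast markers rose. Mitochondrial transcripts summed to 3697 to 12387 CPM in Sox9-tg libraries and 10120 to 18512 CPM in control libraries, with 0 of 9 called by edgeR's quasi-likelihood test, DESeq2 or limma-voom and 4 lower at an unadjusted p under 0.05. Immediate early genes summed to 2799 to 11279 CPM in Sox9-tg libraries and 832 to 5851 CPM in control libraries. Of these, 0 of 10 were called by any of these tools and 0 had an unadjusted p under 0.05. Over all genes tested, 27% had an unadjusted p under 0.05 in either direction.

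Downstream of the D cyclins, a minority of the genes listed for the passage into S phase fell. Of 24 partners in this step (E-type and A-type cyclins, Cdk2, E2F genes, Rb relatives and further inhibitors) 8 fell and none rose, beside 5.86% of all genes lower. The median log2 fold change of the 24 was -0.27, and 6 were positive. At an unadjusted p under 0.05 the counts were 10 lower and 0 higher, where 27% of all genes had such a p in either direction. DESeq2 called 9 lower and 0 higher, and limma-voom 8 lower and 0 higher. Over all 16616 genes DESeq2 called 1339 lower and limma-voom 1006. Without control replicate 1 or control replicate 3 a single partner passed, and without Sox9-tg replicates 3 or 4, or with both summed, 4 did.

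Among the cyclins that act after the D cyclins, Ccne1, Ccne2 and Ccna2 fell. Ccne1, which with Cdk2 starts replication, was at 8.19, 7.93, 9.85 and 10.05 CPM in Sox9-tg replicates 1 to 4, against 17.6, 14.7 and 15.4 CPM in control replicates 1 to 3 (log2 fold change -0.82, SE 0.16). Ccne2 had the same log2 fold change of -0.82 and Ccna2, the S phase cyclin, -1.09, and in all 3 genes no Sox9-tg library reached a control library. Cdk2 itself was at 46.0 ± 2.80 CPM in Sox9-tg libraries and 49.9 ± 2.503 CPM in control libraries and did not pass (adjusted p = 0.508 by edgeR's quasi-likelihood test). Leaving out control replicate 1 ended the calls of Ccne1 (adjusted p = 0.0544) and Ccna2 (0.0541), and so did leaving out control replicate 3 (0.053 for Ccne1 and 0.0523 for Ccna2). The call of Ccne2 ended in 6 of the 7 fits that left out 1 library, all but that without Sox9-tg replicate 1 (adjusted p = 0.0561 to 0.152), and with Sox9-tg replicates 3 and 4 summed (0.0943).

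Among the E2F genes, E2f1, an activator of S phase genes, was at 39.6, 18.6, 37.3 and 37.3 CPM in Sox9-tg replicates 1 to 4, against 66.1, 57.6 and 67.8 CPM in control replicates 1 to 3 (log2 fold change -0.94, SE 0.24). E2f2, also an activator, had a log2 fold change of -1.11. The repressor genes E2f7 and E2f8, themselves E2F targets, had log2 fold changes of -1.40 and -0.52. The call of E2f7 was kept in all 7 fits without 1 library, and that of E2f2 ended when control replicate 1 (adjusted p = 0.0507) or 3 (0.0534) was left out. The E2f1 call ended when any of the 3 control libraries, or Sox9-tg replicate 3 or 4, was left out (adjusted p = 0.0515 to 0.128), and that of E2f8 when control replicate 1 or 3, or Sox9-tg replicate 3 or 4, was (0.0603 to 0.0968). With Sox9-tg replicates 3 and 4 summed both ended too (0.0676 for E2f1 and 0.0613 for E2f8).

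The relatives of Rb1 and of the inhibitors were not uniform. Rbl1, which encodes p107 and is an E2F target, was at 39.3, 23.0, 25.4 and 29.7 CPM in Sox9-tg replicates 1 to 4, against 46.7, 40.1 and 39.9 CPM in control replicates 1 to 3. Its groups did not overlap, yet it did not pass (log2 fold change -0.52, adjusted p = 0.098 by edgeR's quasi-likelihood test). By the same test it passed without Sox9-tg replicate 1 (adjusted p = 0.0099) and without both libraries numbered 1 (0.0302). It also passed with the replicate number as a block (0.0241). Rbl2, which encodes the p130 of resting cells, was at 41.1 ± 2.78 CPM in Sox9-tg libraries and 41.2 ± 2.13 CPM in control libraries, with a 95% interval of -0.24 to 0.23 for the log2 fold change. Cdkn2d, the Ink4 relative p19, fell with a log2 fold change of -0.62. Its call ended in 6 of the 7 fits that left out 1 library, all but that without Sox9-tg replicate 1 (adjusted p = 0.0516 to 0.127), and with Sox9-tg replicates 3 and 4 summed (0.075). Cdkn2a and Cdkn2b were under 1 CPM in all 7 libraries.

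**Figure D4:**
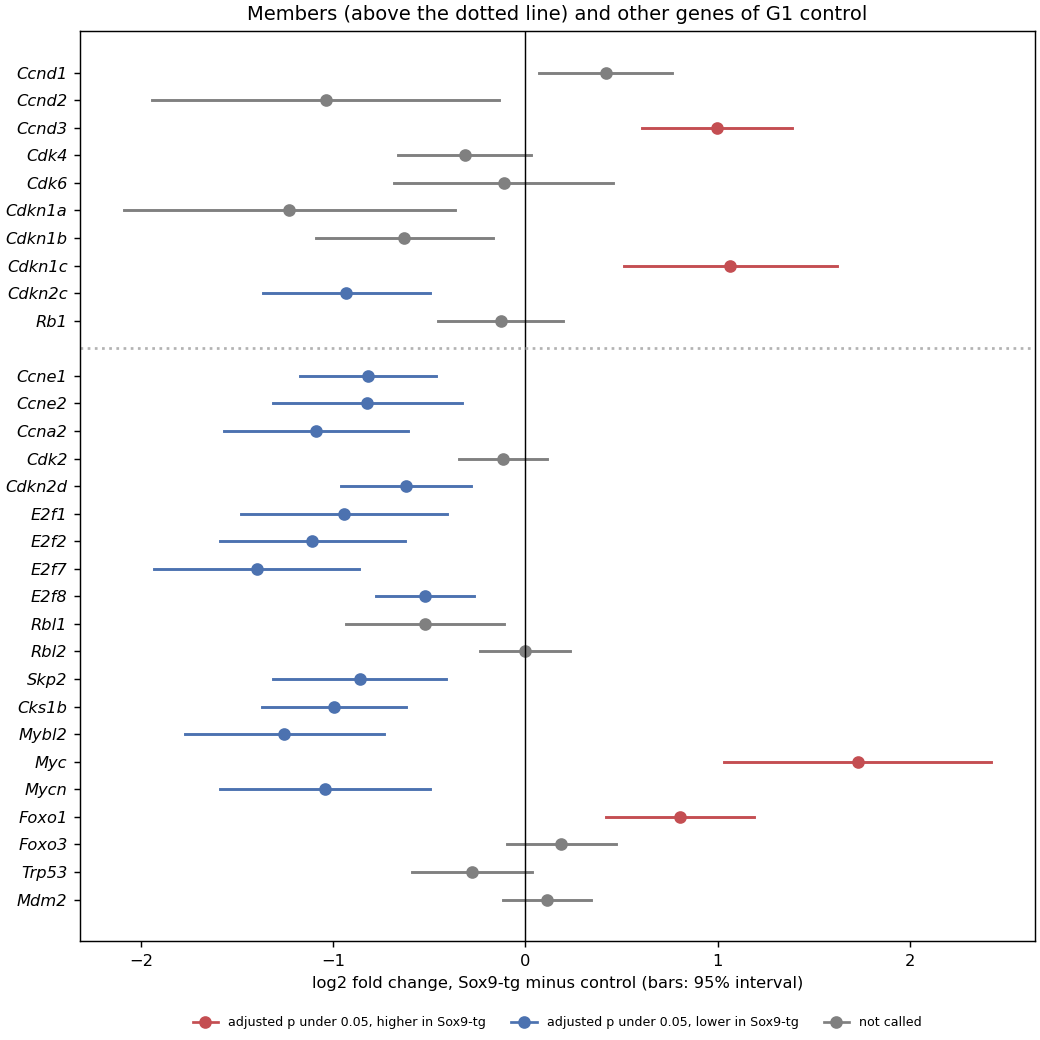
Log2 fold change, Sox9-tg minus control (x axis), with its 95% interval from edgeR's quasi-likelihood test, for the 10 genes above the dotted line and for 20 partners under it. Red marks genes called higher in Sox9-tg, blue genes called lower and grey genes not called. Ccnd3 (1.00) and Cdkn1c (1.07) are the called rises among the 10 and Cdkn2c (-0.93) the called fall.

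Of 13 tested genes for the turnover of cyclins and inhibitors 2 fell and none rose, and the median log2 fold change was 0.04. The share of all tested genes was 5.86% lower and 7.69% higher. Those that fell were Skp2 and Cks1b, the parts of the ubiquitin ligase that recognise p27 for degradation. Cks1b was at 18.5, 14.6, 16.3 and 18.1 CPM in Sox9-tg replicates 1 to 4, against 42.3, 30.2 and 28.7 CPM in control replicates 1 to 3 (log2 fold change -0.996, SE 0.16, adjusted p = 0.00537 by edgeR's quasi-likelihood test). Skp2 was at 23.8 ± 6.03 CPM in Sox9-tg libraries and 43.4 ± 7.06 CPM in control libraries (log2 fold change -0.86, adjusted p = 0.022 by the same test). The Skp2 call ended when control replicate 1 (adjusted p = 0.0944) or 3 (0.0505), or Sox9-tg replicate 3 (0.0708) or 4 (0.0726), was left out, and with the last 2 summed (0.0696). At an unadjusted p under 0.05 the list had 2 lower and 1 higher, where 27% of all genes had such a p in either direction. DESeq2 and limma-voom each called 2 lower and 0 higher, beside 1339 and 1006 lower of all 16616 genes. RNA counts do not measure p27 protein.

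In the DREAM and MuvB complex, which represses cell cycle genes at rest, 1 of 7 genes fell and none rose, beside 5.86% of all genes lower, and the list's median was -0.34 (log2 fold change). The gene that fell was Mybl2, which joins the complex in dividing cells, at 23.4, 11.1, 19.1 and 19.9 CPM in Sox9-tg replicates 1 to 4, against 46.5, 37.2 and 47.8 CPM in control replicates 1 to 3 (log2 fold change -1.25, SE 0.23, adjusted p = 0.00811 by edgeR's quasi-likelihood test). Unadjusted p-values under 0.05 were found for 3 genes, all lower, where 27% of all genes had such a p in either direction. The counts called lower were 3 by DESeq2 and 1 by limma-voom, with 0 higher by either. Of all 16616 genes these tools called 1339 and 1006 lower.

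Upstream, 2 of 22 genes of the p53 pathway, which induces p21, rose and none fell, near the 7.69% of all genes that rose, and the median was 0.00 (log2 fold change). Zmat3 was at 69.8 ± 5.78 CPM in Sox9-tg libraries and 46.5 ± 3.51 CPM in control libraries (log2 fold change 0.59, adjusted p = 0.0101 by edgeR's quasi-likelihood test), and the scarce Perp was at 2.10 ± 0.468 CPM in Sox9-tg libraries and 0.838 ± 0.204 CPM in control libraries (1.31, adjusted p = 0.0389). Trp53 (-0.28, adjusted p = 0.239) and Mdm2 (0.11, adjusted p = 0.54), the gene of the main p53 inhibitor, did not pass. At an unadjusted p under 0.05 there were 5 higher and 2 lower, where 27% of all genes had such a p in either direction. DESeq2 called 3 higher and 1 lower, beside 1709 higher and 1339 lower of all 16616 genes. With limma-voom 3 were higher and 0 lower, beside 1242 higher and 1006 lower of all genes. Leaving out control replicate 3 ended the call of Zmat3 (adjusted p = 0.0689). Perp kept its call in 2 of the 7 fits that left out 1 library, those without control replicate 2 or Sox9-tg replicate 1 (adjusted p = 0.0799 to 0.167 in the other 5), and lost it without the low count filter (0.095) and with Sox9-tg replicates 3 and 4 summed (0.0858).

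Among 20 mitogen and arrest factors, which set the level of D cyclins and inhibitors, 2 rose and 5 fell, beside 7.69% of all genes higher and 5.86% lower. The median log2 fold change of that list was -0.01. Myc, a driver of growth and division, was at 48.1, 94.6, 86.0 and 78.3 CPM in Sox9-tg replicates 1 to 4, against 14.1, 31.6 and 23.5 CPM in control replicates 1 to 3 (log2 fold change 1.73, SE 0.31, adjusted p = 0.00727 by edgeR's quasi-likelihood test). Its groups did not overlap, and its relative Mycn went the other way, at 44.3 ± 12.6 CPM in Sox9-tg libraries and 91.3 ± 18.9 CPM in control libraries (-1.04, adjusted p = 0.0222). The Mycn call ended when control replicate 1 (adjusted p = 0.0989) or 3 (0.0776), or Sox9-tg replicate 3 (0.0589) or 4 (0.0613), was left out, and with the last 2 summed (0.0597).

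Foxo1, a forkhead factor that can induce inhibitors of division, was at 50.3 ± 5.81 CPM in Sox9-tg libraries and 28.7 ± 6.19 CPM in control libraries (log2 fold change 0.80, adjusted p = 0.0157 by edgeR's quasi-likelihood test), and leaving out control replicate 3 ended this call (adjusted p = 0.0552). Foxo3, of the same family, did not pass (0.19, adjusted p = 0.386), and Foxo6 fell (-1.60, adjusted p = 0.0148), a call that ended when control replicate 1 (0.0611) or 3 (0.06) was left out. The Hedgehog effectors Gli1 and Gli2 fell most, with log2 fold changes of -2.88 and -1.87. Gli1 was at 3.41, 4.24, 5.80 and 6.49 CPM in Sox9-tg replicates 1 to 4, against 24.8, 48.1 and 36.8 CPM in control replicates 1 to 3. Mxd3, of the Myc and Max network, fell with a log2 fold change of -1.33.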

How the data were processed

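Raw read counts per gene were deposited by the authors, 1 table a library. The submitters' processing notes name GRCm38 as the build and list STAR 2.5.2b, Trimmomatic 0.36, Subread 1.5.2 with featureCounts, DESeq and DESeq2. What each did, the use of strand and the annotation release were not given in the sources used here.

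Groups were taken from the sample titles. Low genes were removed with filterByExpr (default minimum count of 10 and total of 15), which took away 0.0798 to 0.364% of a library's counts, and scaled with TMM factors (0.965 to 1.05). The 4 Sox9-tg libraries were compared with the 3 control libraries in edgeR 4.0.16 (R 4.3.3) with its quasi-likelihood F test, two-sided, with group as the only term and Benjamini-Hochberg adjustment over 16616 genes at 0.05. The SE is the log2 fold change divided by the square root of F, and the 95% intervals are not adjusted for the number of genes. A total of 3 counts came to 0.097 to 0.193 CPM, a floor that covers counting error only. Levels per kb used exon lengths of GENCODE M21 on GRCm38. Alternatives were DESeq2 1.42.0, limma-voom (limma 3.58.1), other scalings, no filter, a replicate block, the longest transcript as length and each library left out. Fits without both libraries numbered 1 or 2, and with Sox9-tg replicates 3 and 4 summed, were added after seeing the data. The steps were tested on simulated data.

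The 10 genes and all lists were chosen with earlier results of these data known. Partner genes were named as the up to 5 called genes of smallest p per list and direction, a set of canonical partners, the 3 of smallest p among replication and mitosis genes, and defining cell type markers. Oraov1, Tspan31 and Gm44732 were named outside this rule, after their values were seen.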

Additional observations from a re-analysis of the deposited data

Results flagged for a closer look

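Among the 4 Sox9-tg libraries, 10 of the values tested (54 genes and 9 shares of a summed level) had 1 library far from the other 3 by Dixon's ratio. Chance gives this in about 1 in 20 groups. The group of 3 control libraries was too small for this check.

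Sox9-tg replicate 1 stood apart in Cdk6, at 189 CPM against 90.2 to 105 CPM in the other 3. Its Cdk4 share of the kinase level was 87.4% against 93.0 to 93.4%, and its Cdk6 share 12.6% against 6.64 to 7.02%, which are 1 observation in different forms.

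Sox9-tg replicate 2 stood apart in Cdkn1a, at 14.0 CPM against 5.46 to 6.05 CPM, with a share of 4.34% of the inhibitor level against 1.59 to 1.6%. It was lowest in Rb1, at 53.9 CPM against 74.5 to 75.9 CPM. Among the partners it was lowest in E2f8 (18.6 CPM against 22.0 to 22.4 CPM), E2f1 (18.6 CPM against 37.3 to 39.6 CPM) and Cdkn2d (19.3 CPM against 23.8 to 24.5 CPM). The endothelial marker Cldn5 was at 8.78 CPM in it, against 1.47 to 2.15 CPM in the others. The same library was lowest in division genes and highest in the summed microglia, endothelial and myelin markers, and the part of these in its values was not tested.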

How the results depend on the processing

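Of the 10 genes, Ccnd3 kept its call in every fit run. Under other tools and scalings, the number of the 10 called lower was 2 without the low count filter, 4 with DESeq2 and 2 with limma-voom, the added calls being among Cdkn1a, Cdkn1b and Ccnd2. Leaving out each library in turn gave 1 to 2 called higher and 0 to 3 called lower. Without both libraries numbered 2 the counts were 1 higher and 3 lower, and with Sox9-tg replicates 3 and 4 summed 1 was higher.

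By correlation of deviations, libraries numbered 1 (0.317) and 2 (0.613) each correlated best with the library of the same number. Number 3 did not pair (0.0703), as Sox9-tg replicate 3 was closer to control replicate 1 (0.0864). Control replicate 3 was closer to Sox9-tg replicate 1 (0.140). With the number as a replicate block 3109 genes were called, 4 of the 10 lower (Cdkn1a, Cdkn1b and Ccnd2 with Cdkn2c) and 2 higher. No control library is numbered 4, so in this fit Sox9-tg replicate 4 adds nothing to the difference between the groups. That difference rests on the libraries numbered 1 to 3, of which number 3 did not pair. The block also gave 2 DREAM and MuvB genes lower, and 4 p53 pathway genes higher and 1 lower, with log2 fold changes of 0.01188 for Rbl2 and 0.02301 for Cdkn2b.

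All genes called numbered 965 to 3169 with 1 library left out and 1358 with Sox9-tg replicates 3 and 4 summed. That sum also gave 4 partners of the passage into S phase, 1 turnover gene and 16 mitosis genes lower, and 1 p53 pathway gene higher. With 1 library left out, the partners called lower numbered 1 to 10, with 1 without control replicate 1 or 3. Replication genes lower were 9 to 27, namely 9 and 10 without control replicates 1 and 3. Mitosis genes lower were 6 to 30, namely 6 without control replicate 1 and 12 without control replicate 3 or Sox9-tg replicate 3. Turnover genes lower numbered 1 to 2, DREAM and MuvB genes lower 1 to 2, p53 pathway genes higher 0 to 3 and lower 0 to 1, and mitogen and arrest factors higher 1 to 4 and lower 3 to 5.

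DREAM and MuvB genes lower were 2 under upper-quartile factors, 2 under total counts and 3 with DESeq2. Of the p53 pathway 1 gene was lower under upper-quartile factors, total counts, DESeq2 and without both libraries numbered 1, where 5 mitogen and arrest factors were higher. Without both libraries numbered 2, 1 turnover gene was lower.

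Differences of shares (Sox9-tg minus control, in percentage points) with 1 library left out were 8.98 to 15.6 for Ccnd1, -25.9 to -14.7 for Ccnd2, 5.73 to 10.3 for Ccnd3, -1.48 to 0.513 for Cdk4, -3.03 to -1.23 for Cdkn1a, -15.6 to -7.98 for Cdkn1b, 17.5 to 26.3 for Cdkn1c and -9.21 to -6.41 for Cdkn2c.

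The sign turned for values near 0. With 1 library left out, Cdk6 ranged from a log2 fold change of -0.4132 without Sox9-tg replicate 1 to 0.01726 without Sox9-tg replicate 2, and the Cdk4 share difference was 0.5129 without Sox9-tg replicate 1. Rbl2 was at 0.01241 without the filter, -0.04942, 0.0427 and 0.02294 without Sox9-tg replicates 1, 2 and 4, 0.01909 and 0.02537 without control replicates 2 and 3, 0.06179 without both libraries numbered 2 and 0.007952 with Sox9-tg replicates 3 and 4 summed. Cdkn2b was at -0.407 and 0.3572 with control replicates 3 and 2 left out and at 0.4651 without both libraries numbered 2. Cldn5 was at -3.335 with Sox9-tg replicate 2 left out and at 0.5022 with control replicate 2 left out. The cause was not tested. A fit on fewer libraries has less power, and Cdkn2a, Cdkn2b and Perp rest on few counts.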
